A study of Mus musculus with 18 samples.

Results

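The genes described here are 7 genes that make or release ligands of the epidermal growth factor receptor (EGFR): the ligand genes Ereg, Areg, Hbegf and Tgfa, the sheddase genes Adam17 and Adam10, and Rhbdf2. They were chosen by gene symbol from the 16909 symbols in the deposited table, and all 7 were among the 12465 genes tested. Ereg had been named in an earlier look at these data for its lower level in the groups given apoptotic bodies than in LPS. Which measured values led to the other 6 is not recorded, so every comparison of the 7 genes between an apoptotic body group and LPS is given as a description, with no test. Tests of the 7 genes against Con are printed, but they carry the same limit. The study sequenced poly(A) RNA from 18 samples of bone marrow macrophages of the mouse, in 4 groups. UVABs (n = 5) and STSABs (n = 5) received apoptotic bodies, the membrane-bound fragments of dying cells, taken from hucMSC in which death had been induced by UV or by STS, and the labels call both anti-inflammatory treatments. LPS (n = 5) was the positive control for inflammation, and Con (n = 3) the mock group. The labels of UVABs replicates 4 and 5 carry a shorter spelling of the same treatment. The labels give no dose, no time and no strain, and do not state whether the apoptotic body groups also received LPS. They also do not say whether the libraries of a group came from separate animals or cultures, so the p-values measure only how these libraries varied, and that variation may be technical.

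Ligands of EGFR are made as precursors that span the cell membrane, and most act on other cells only after a protease cuts the outer part free. ADAM17 is the main sheddase of the precursors of epiregulin, amphiregulin, heparin-binding EGF-like growth factor and TGF-alpha, and it also releases TNF. iRhom2, the product of Rhbdf2, carries ADAM17 through the secretory pathway to the surface, and in mouse macrophages it is needed for TNF release. ADAM10 is the related sheddase that cuts the precursors of EGF and betacellulin.

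All 8 macrophage markers (among them Adgre1, Csf1r and Cd68) averaged over 1 CPM (counts per 1000000) in every group, and their summed level was 10450 to 11936 CPM in UVABs, 9732 to 10863 CPM in STSABs, 12268 to 13651 CPM in LPS and 10585 to 11476 CPM in Con. CPM were scaled by TMM, which sets libraries level on genes of middling change. The libraries numbered 2 of both apoptotic body groups stood apart from the others of their groups on the third principal component (2.13% of the variance), at -29.2 in UVABs and -22.7 in STSABs, against 2.91 to 12.0 in the other 8. On the second component (12.7%) they were also the lowest, at -31.2 and -33.2, against -20.4 to -13.4 in the other 8. Values without these 2 libraries are given for some genes only, and others moved too. In UVABs against LPS, for example, the log2 difference went from -0.69 to -0.78 for Egfr and from -0.38 to -0.45 for Hbegf. Neutrophil markers were higher in the apoptotic body groups than in LPS, with all 8 called higher in both comparisons by edgeR, and had sums of 3181 to 4204 CPM in UVABs, 3251 to 4711 CPM in STSABs, 1812 to 2524 CPM in LPS and 1185 to 1481 CPM in Con. Of all genes tested, edgeR called 57.4% in each of these comparisons, 28.6% higher and 28.8% lower in UVABs, and 28.4% higher and 29% lower in STSABs. Of the mast cell and basophil markers, cells that also make amphiregulin, 6 of 7 tested were called higher and 1 lower in each apoptotic body group than in LPS. Their sums were 690 to 833 CPM in UVABs, 698 to 1006 CPM in STSABs, 527 to 581 CPM in LPS and 112 to 126 CPM in Con. Of the T and innate lymphoid markers, which summed to 265 to 295 CPM in UVABs, 259 to 276 CPM in STSABs, 268 to 316 CPM in LPS and 129 to 146 CPM in Con, Cd3e had no count in STSABs or LPS. Of the 4 tested, 2 were called higher and 0 lower in UVABs than in LPS, and 2 higher and 1 lower in STSABs. Epithelial markers summed to 32.8 to 38.8 CPM in UVABs, 34.6 to 41.2 CPM in STSABs, 22.6 to 25.6 CPM in LPS and 321 to 346 CPM in Con, and Krt8 had 2 counts in all libraries together. The 2 epithelial markers tested were called higher in each apoptotic body group than in LPS, and lower in LPS than in Con. Dendritic cell markers, of which 4 of 5 were called higher in each apoptotic body group than in LPS, summed to 2742 to 3394 CPM in UVABs, 2782 to 3364 CPM in STSABs, 2450 to 2744 CPM in LPS and 212 to 234 CPM in Con. In LPS against Con, 2 of 7 mast cell and basophil markers were called higher and 3 lower (median log2 fold change -0.34). Of 5 dendritic cell markers, 2 were called higher and 2 lower there (median -0.45), where 40% of all genes were higher and 43% lower. The higher sums in LPS than in Con thus do not stand for most of these markers. The part of these cell types in the ligand values was not tested.

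Ereg and Areg lie side by side on chromosome 5, with 0 genes between them in the RefSeq annotation of GRCm38.p6. No promoter sequence of Ereg was at hand for comparison. The promoter of Areg is shown because Areg lay closer to its LPS level than Ereg did in the apoptotic body groups (values below). This promoter is also shown because it holds a full cAMP response element, a site bound by factors of the CREB family. It is the plus strand of GRCm38.p6 at chr5:91139349-91139598, the 250 bases before the RefSeq start of the gene, with the TGACGTCA in capitals.
Areg: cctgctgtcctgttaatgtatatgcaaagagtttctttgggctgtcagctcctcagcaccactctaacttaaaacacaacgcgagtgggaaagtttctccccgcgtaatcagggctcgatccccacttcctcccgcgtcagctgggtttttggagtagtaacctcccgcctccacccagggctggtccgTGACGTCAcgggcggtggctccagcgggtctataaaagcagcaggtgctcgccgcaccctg
The TGACGTCA begins 61 bases before the start, and 1.79% of the 32851 RefSeq promoter windows of 300 bases (250 before to 50 after the start) hold these letters on either strand. TGANTCA for AP-1, the NF-kB site and ACGTG for the hypoxia response element core were also searched on both strands, and were held by 7.81%, 4.51% and 19.6% of the windows. None of these was in the Areg window. Windows were at hand for 4 of the 7 genes: that of Adam10 held ACGTG on both strands, in overlapping matches that begin 64 and 63 bases before the start, and those of Adam17 and Tgfa held none of the 4 patterns. A match is a description of the letters only. The series was aligned to another build, mm39, so no coordinate here comes from its files.

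**Figure D1:**
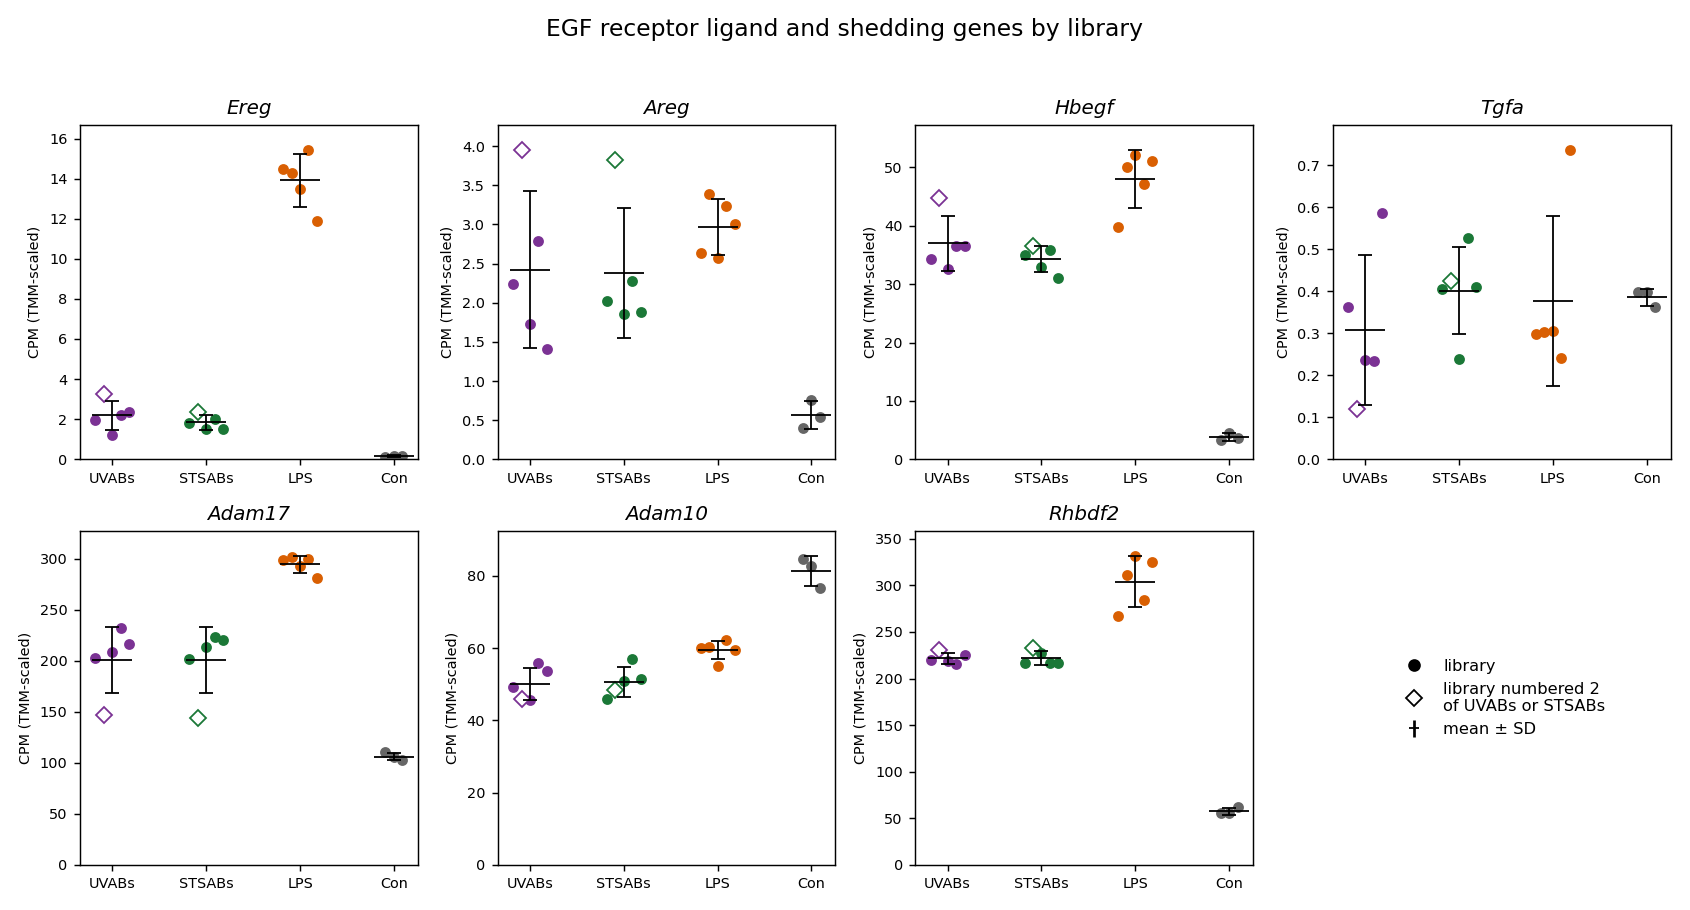
Level of each of the 7 genes in each library, in TMM-scaled CPM on linear axes that start at 0. Points are libraries, open diamonds the libraries numbered 2 of UVABs and STSABs, and bars are the mean with SD (n = 5 for UVABs, STSABs and LPS, n = 3 for Con). Ereg lies at 11.9 to 15.4 CPM in LPS, above every UVABs and STSABs library (1.19 to 3.23 CPM), and Areg overlaps among UVABs, STSABs and LPS.

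In LPS against Con, 3 of the 4 ligand genes rose together with Adam17 and Rhbdf2, Adam10 fell, and Tgfa stayed near its detection limit in both groups. Of the 7 genes, 5 were called higher and 1 lower by edgeR's quasi-likelihood test, with Benjamini-Hochberg adjustment over all genes at 0.05. The comparison changed much of the transcriptome: of all genes tested 83% were called, 40% higher and 43% lower, and the groups of 80% did not overlap, as they did not for 6 of the 7. The median log2 fold change of the 7 was 2.38, against -0.03 over all genes tested. The values that led to these genes are not fully recorded and may include this comparison. The calls, p-values and median are thus a description, and nothing is read from the number of calls. In bulk RNA, fewer cells of a type and less RNA per cell cannot be told apart, and that holds for every value below. Whether RNA of the apoptotic bodies themselves is part of the UVABs and STSABs libraries was not tested.

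Ereg encodes epiregulin, a ligand of EGFR and ErbB4 that is made by activated macrophages. Its level was 14.5, 14.3, 13.5, 15.4 and 11.9 CPM in LPS (194 to 257 counts a library), against 0.109, 0.181 and 0.181 CPM in Con (3 to 5 counts). All 5 LPS libraries thus lay far above all Con libraries, in which the gene was barely detected. The log2 fold change was 6.41 ± 0.26 (SE), or 85.3-fold, with an edgeR adjusted p of 4.76e-16. This was the 117th highest of 12465 changes. The LPS libraries are also those against which the earlier look at Ereg was made, so this p-value and rank are a description. Ereg reached the filter's minimum in 15 libraries, those of LPS and the apoptotic body groups, and in 0 of Con.

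Hbegf encodes heparin-binding EGF-like growth factor, which binds EGFR and ErbB4 and whose precursor is the diphtheria toxin receptor in humans. It was measured at 39.8, 50.0, 52.1, 47.2 and 51.1 CPM in LPS, against 3.26, 4.51 and 3.69 CPM in Con. The groups did not overlap, and the log2 fold change was 3.65 ± 0.13 (12.6-fold, edgeR adjusted p = 2.31e-17). Areg encodes amphiregulin, a ligand of EGFR known in tissue repair. It had 2.63, 3.39, 2.57, 3.24 and 3.01 CPM in LPS, against 0.398, 0.758 and 0.542 CPM in Con. It rose by 2.38 ± 0.32 on the log2 scale (edgeR adjusted p = 5.42e-07), on 42 to 56 counts a library in LPS and 11 to 21 in Con.

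Tgfa, which encodes TGF-alpha, a ligand of EGFR alone, had 0.299, 0.303, 0.306, 0.240 and 0.737 CPM in LPS, against 0.398, 0.397 and 0.361 CPM in Con. These are 4 to 12 counts a library, the groups overlapped, and the log2 fold change of -0.04 ± 0.38 did not pass (edgeR adjusted p = 0.933). It entered the test through 3 libraries at or over the filter's minimum, 1 of LPS and 2 of Con, so a difference of Tgfa was not detectable at this depth unless it was large.

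Adam17 had 299, 301, 293, 300 and 281 CPM in LPS, against 110, 106 and 103 CPM in Con. The log2 fold change was 1.47 ± 0.13 (2.78-fold, edgeR adjusted p = 3.20e-10). Its partner Rhbdf2 was measured at 268, 311, 332, 284 and 325 CPM in LPS, against 55.2, 55.7 and 62.1 CPM in Con. With 2.40 ± 0.07 on the log2 scale (5.27-fold, edgeR adjusted p = 1.32e-18), its fold change was larger than that of the protease its product carries, and that difference was not tested. Adam10 went the other way, with 60.0, 60.5, 55.1, 62.1 and 59.6 CPM in LPS, against 84.7, 82.9 and 76.7 CPM in Con. It fell by 0.45 on the log2 scale (SE 0.07, edgeR adjusted p = 3.91e-06), and its groups did not overlap either.

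These sizes move with the scaling, since the mean TMM factor was 0.902 in LPS and 1.51 in Con. With library totals alone, the median of all genes in LPS against Con moved by -0.74 on the log2 scale, and 21.2% of the calls were higher rather than 48.2%. The 6 genes kept their direction and their call there: the log2 fold change was 5.69 for Ereg, 2.91 for Hbegf, 1.64 for Areg, 1.65 for Rhbdf2 and 0.73 for Adam17, while Adam10 was at -1.20. Upper-quartile scaling moved the median by -0.28 and left 36.0% of the calls higher.

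In the apoptotic body groups, Ereg stood apart from the other 6 genes: it lay 6.36-fold below LPS in UVABs and 7.57-fold below in STSABs, while no other of the 7 lay more than 1.47-fold below. Its level was 1.94, 3.23, 1.19, 2.21 and 2.35 CPM in UVABs (20 to 54 counts) and 1.80, 2.37, 1.50, 1.99 and 1.53 CPM in STSABs (25 to 39 counts), against the 11.9 to 15.4 CPM in LPS given above. The highest apoptotic body library, at 3.23 CPM, was far below the lowest LPS library, yet all 10 lay above the highest Con library. The log2 difference was -2.67 ± 0.15 in UVABs and -2.92 ± 0.15 in STSABs, the 15th and the 9th lowest of 12465. Without the libraries numbered 2 it was -2.85 and -3.02. Ereg was named for this drop, so these ranks and its distance from the other 6 genes are a description. Against Con, with which both comparisons share the 3 Con libraries, Ereg remained higher by 3.75 in UVABs and 3.49 in STSABs on the log2 scale.

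Areg, its neighbour on the chromosome, had 2.24, 3.95, 1.72, 2.79 and 1.41 CPM in UVABs and 2.03, 3.83, 1.86, 2.28 and 1.88 CPM in STSABs, against 2.57 to 3.39 CPM in LPS. Both groups overlapped with LPS, and in both the library numbered 2 was the highest of the 5. The log2 difference was -0.29 ± 0.23 in UVABs and -0.33 ± 0.23 in STSABs. Without the libraries numbered 2 it was -0.54 ± 0.18 and -0.56 ± 0.18, so these libraries decide its size. The coefficient of variation of Areg was 41.4% in UVABs, 35.0% in STSABs, 12.2% in LPS and 32.0% in Con.

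Hbegf lay at 34.3, 44.8, 32.7, 36.6 and 36.6 CPM in UVABs and at 35.0, 36.5, 33.0, 35.8 and 31.1 CPM in STSABs, against 39.8 to 52.1 CPM in LPS. All STSABs libraries were below all LPS libraries, and in UVABs only replicate 2 reached into the LPS range. The log2 difference was -0.38 ± 0.08 in UVABs and -0.49 ± 0.09 in STSABs, so Hbegf kept most of its distance from Con (3.27 in UVABs and 3.16 in STSABs). Tgfa had 0.120 to 0.587 CPM in UVABs and 0.240 to 0.526 CPM in STSABs, against 0.240 to 0.737 CPM in LPS and 0.361 to 0.398 CPM in Con, or 2 to 12 counts a library throughout.

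Adam17 was measured at 203, 147, 208, 232 and 216 CPM in UVABs and at 201, 144, 214, 224 and 221 CPM in STSABs, against 281 to 301 CPM in LPS. All 10 libraries lay between the ranges of LPS and Con, and the library numbered 2 was the lowest in both groups. The log2 difference from LPS was -0.55 ± 0.10 in both, and -0.46 and -0.45 without those libraries.

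Rhbdf2 lay at 219, 230, 219, 215 and 226 CPM in UVABs and at 217, 233, 227, 217 and 216 CPM in STSABs, against 268 to 332 CPM in LPS. Its log2 difference was -0.45 ± 0.05 in both. Of the 7 genes it varied least within the apoptotic body groups, with a coefficient of variation of 2.73% in UVABs and 3.45% in STSABs, against 9.01% in LPS. Adam10 had 49.3, 45.9, 45.7, 55.8 and 53.8 CPM in UVABs and 46.0, 48.4, 50.9, 57.0 and 51.3 CPM in STSABs, against 55.1 to 62.1 CPM in LPS. Both groups reached just into the LPS range, with log2 differences of -0.25 ± 0.06 in UVABs and -0.23 ± 0.06 in STSABs. Adam10 was thus lower in LPS than in Con and lower again in the apoptotic body groups, at -0.70 in UVABs and -0.68 in STSABs against Con.

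Of the 7 genes, 3 lay lower in UVABs than in LPS without overlap of the groups and 4 in STSABs, where 21.9% and 21.8% of all genes did. Both comparisons share the LPS libraries, and since Ereg was named from them nothing is read from these counts. Against Con, 5 were called higher and 1 lower in each apoptotic body group. There 82.6% of all genes were called, 40.2% higher and 42.4% lower in UVABs and 40% higher and 42.6% lower in STSABs. Nothing is read from these calls of the 7 genes either.

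**Figure D2:**
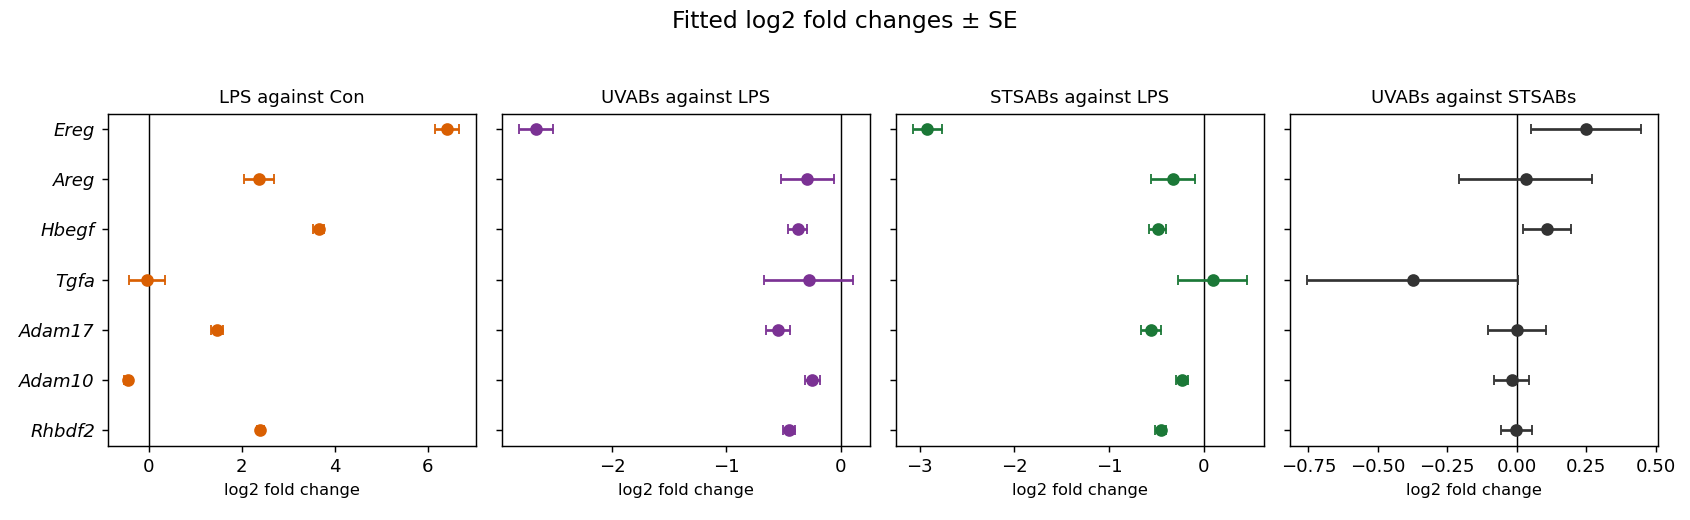
Log2 fold change ± SE of each of the 7 genes from the edgeR fit of all 18 libraries, in a panel for each comparison named above it. Ereg is at -2.67 and -2.92 in the panels of UVABs and STSABs against LPS, the other genes there lie between -0.55 and 0.10, and all 7 lie between -0.37 and 0.25 in UVABs against STSABs. The scales of the panels differ.

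Between the kinds of apoptotic bodies, none of the 7 genes was called by edgeR, with an adjusted p of 0.9996 for each. Nor was any of the 12465 genes (0% called, with 198 at an unadjusted p under 0.05), and neither DESeq2 nor limma-voom called any. Groups of 0.345% of all genes did not overlap, and none of these was among the 7. The log2 difference of UVABs from STSABs and its 95% interval were 0.25 (-0.16 to 0.66) for Ereg, 0.03 (-0.47 to 0.53) for Areg, 0.11 (-0.07 to 0.29) for Hbegf and -0.37 (-1.17 to 0.42) for Tgfa. For the shedding genes the intervals were narrower: -0.21 to 0.22 for Adam17, -0.15 to 0.12 for Adam10 and -0.11 to 0.11 for Rhbdf2. These intervals are per gene and not adjusted for the number of genes, so they are no limit of detection. Differences inside them are not excluded, so the values do not show that the kinds act alike.

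Levels between genes can be compared only per length. On the scale of mean CPM per kilobase of merged exons (lengths from the GENCODE annotation of GRCm38), the order in LPS was Rhbdf2 at 57.4, Adam17 at 41.2, Adam10 at 12.1, Hbegf at 9.94, Ereg at 3.37, Areg at 2.44 and Tgfa at 0.0581. In UVABs, on the same scale, Rhbdf2 was at 41.9, Adam17 at 28.1, Adam10 at 10.2, Hbegf at 7.65, Areg at 2.00, Ereg at 0.529 and Tgfa at 0.0475. The order in STSABs was the same. The only change of order between LPS and the apoptotic body groups was thus that of the neighbours Ereg and Areg. In Con, Adam10 led with 16.6 CPM per kilobase, before Adam17 at 14.8 and Rhbdf2 at 10.9, and the ligand genes followed at 0.790 for Hbegf, 0.466 for Areg, 0.0594 for Tgfa and 0.0379 for Ereg. In each of the 4 groups, the ranges of mean ± SD of genes next to each other in this order did not overlap.

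Across the 18 libraries, the log2 CPM of Hbegf and Rhbdf2 had a Pearson correlation of 0.990, and that of Ereg with Rhbdf2 was 0.903, with Hbegf 0.868 and with Areg 0.846. Adam10 ran against them, at -0.790 with Hbegf. These values describe libraries that fall into groups far apart and share their scaling, so they follow mainly the group means. By the same measure, the 5 genes most like Ereg, among 9107 genes of at least 5 CPM on average, were Olr1 (0.988), Txnrd1 (0.986), Csf1 (0.983), Cav1 (0.981) and Jpt1 (0.981). Olr1, the scavenger receptor LOX-1, averaged 91.9 CPM in UVABs, 89.5 CPM in STSABs, 209 CPM in LPS and 30.8 CPM in Con, which is the order of Ereg with smaller steps. Csf1, the growth factor of macrophages, averaged 93.2 CPM in UVABs, 94.3 CPM in STSABs, 197 CPM in LPS and 28.8 CPM in Con. Those most like Hbegf were Mmp14, Slc7a8, Cxcl1 and Atp13a1 (0.996 each) and Sod2 (0.995). Mmp14, a membrane-bound matrix protease, averaged 850 CPM in UVABs, 849 CPM in STSABs, 1039 CPM in LPS and 212 CPM in Con. Those most like Areg were Uhrf2 (0.953), Gpc1, Sdcbp2 and Prdx6 (0.951 each) and Dcakd (0.943), and the closest to Tgfa, Snupn, reached only 0.594.

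Transcripts of the receptors that these ligands bind were few in all libraries. Egfr had 19 to 42 counts a library in UVABs, 27 to 44 in STSABs, 51 to 58 in LPS and 90 to 106 in Con. Its level averaged 2.01 ± 0.53 CPM in UVABs and 2.07 ± 0.35 CPM in STSABs, against 3.24 ± 0.19 CPM in LPS (SD, n = 5 each). It fell by 0.69 on the log2 scale in UVABs (SE 0.16, edgeR adjusted p = 7.75e-04) and by 0.64 in STSABs (SE 0.16, edgeR adjusted p = 0.0013). In LPS against Con the log2 fold change was -0.10 ± 0.15 (edgeR adjusted p = 0.549), and it was called lower under upper-quartile scaling (-0.38) and with library totals alone (-0.84).

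Erbb2, the co-receptor that binds no ligand itself, moved the other way. It averaged 1.82 ± 0.61 CPM in UVABs and 1.74 ± 0.99 CPM in STSABs, against 0.339 ± 0.053 CPM in LPS (SD, n = 5 each) and 0.362 ± 0.037 CPM in Con (SD, n = 3). The lowest library of the apoptotic body groups had 0.898 CPM, above every library of LPS, which held 5 to 7 counts each, and the libraries numbered 2 were the highest of both groups. The rise over LPS was 2.40 ± 0.38 on the log2 scale in UVABs (edgeR adjusted p = 1.35e-05) and 2.33 ± 0.38 in STSABs (edgeR adjusted p = 2.11e-05), and 2.20 and 1.94 without the libraries numbered 2. Erbb2 passed the filter, about 10 counts in at least 3 libraries, only through the apoptotic body groups. These held 15 to 56 counts a library, against 9 to 11 in Con. Its p-values are thus a description. Erbb3, the receptor of neuregulins, averaged 3.95 CPM in UVABs, 3.49 CPM in STSABs, 3.40 CPM in LPS and 3.60 CPM in Con and was not called in these comparisons. Under upper-quartile scaling (-0.36) and with library totals alone (-0.83) it was called lower in LPS than in Con. Erbb4, which epiregulin and HB-EGF also bind, had 1 count in all 18 libraries together.

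**Figure D3:**
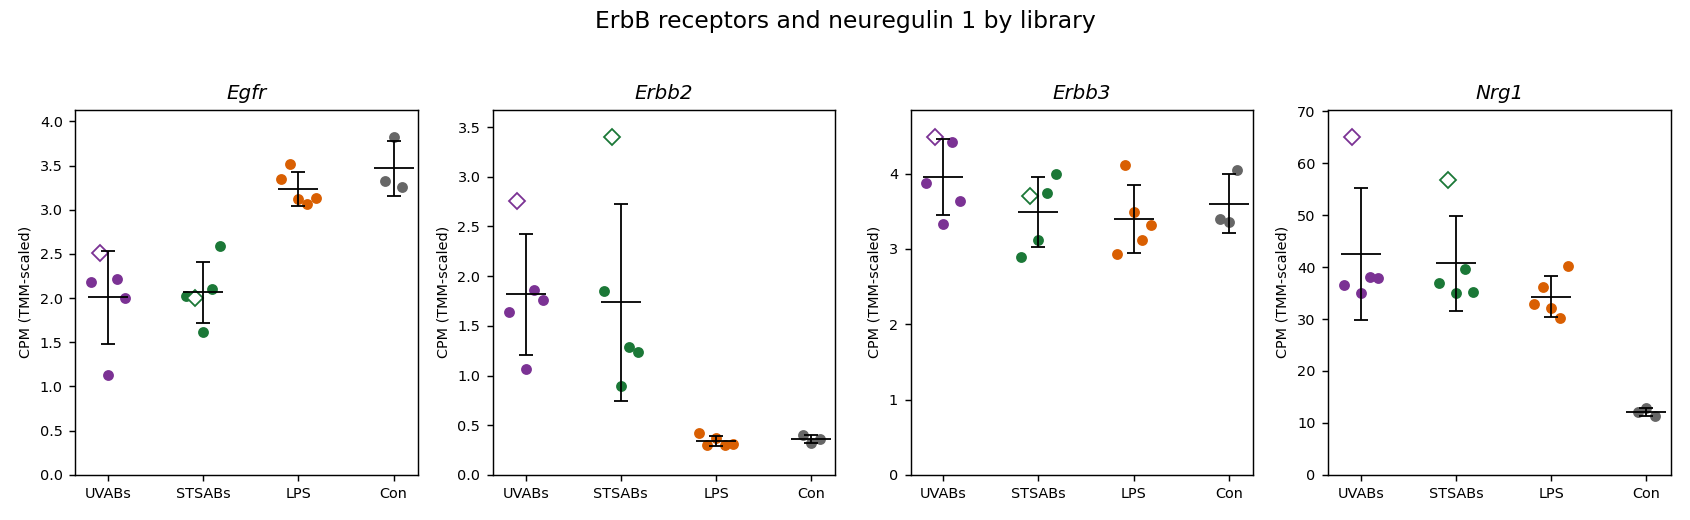
Level of the ErbB receptor genes that were tested, and of Nrg1, in each library, in TMM-scaled CPM on linear axes that start at 0. Points are libraries, open diamonds the libraries numbered 2 of UVABs and STSABs, and bars are the mean with SD (n = 5 for UVABs, STSABs and LPS, n = 3 for Con). Every UVABs and STSABs library lies above every LPS and Con library for Erbb2, and the means of Egfr are lower in UVABs (2.01 CPM) and STSABs (2.07 CPM) than in LPS (3.24 CPM).

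Of the other genes of the ligand family, Nrg1 (neuregulin 1, a ligand of ErbB3 and ErbB4) was the only one above 2 CPM. It averaged 34.3 ± 3.94 CPM in LPS (SD, n = 5), against 12.1 ± 0.79 CPM in Con (SD, n = 3), and rose by 1.50 ± 0.19 on the log2 scale (edgeR adjusted p = 1.69e-07). In UVABs it averaged 42.5 ± 12.7 CPM and in STSABs 40.7 ± 9.18 CPM (SD, n = 5 each), which did not pass against LPS (0.31 ± 0.15 and 0.25 ± 0.15). With the replicate block UVABs passed (0.28, edgeR adjusted p = 0.022), as it did without STSABs replicate 2 (0.31), and STSABs passed without UVABs replicate 2 (0.25). The libraries numbered 2 were the highest, and without them the differences were 0.10 and 0.10. Nrg2 fell by 2.06 on the log2 scale in LPS against Con (SE 0.48, edgeR adjusted p = 4.99e-04), on at most 21 counts a library. Nrg2 passed the filter only through Con (14 to 21 counts, against at most 7 elsewhere), so its p-value is a description. Egf, at 0.404 CPM in UVABs, 0.502 CPM in STSABs and 0.911 CPM in LPS, was called lower in UVABs than in LPS (-1.16 ± 0.39, edgeR adjusted p = 0.016), a call lost with replicates 1 to 3 only, and not in STSABs (-0.86 ± 0.38, edgeR adjusted p = 0.056). Without the libraries numbered 2 it was called in STSABs too (-1.47, edgeR adjusted p = 8.17e-04). Nrg4 passed as higher in LPS than in Con (0.50 ± 0.23, edgeR adjusted p = 0.047) and as lower in UVABs than in LPS (-0.56 ± 0.22, edgeR adjusted p = 0.033), both calls lost in the test by DESeq2, and the first at -0.24 with library totals alone. The first was also lost with upper-quartile scaling (0.22), in limma-voom, with the replicate block and without any single Con library. Both calls were lost with replicates 1 to 3 only and without some single libraries. Btc and Epgn had 16 and 12 counts in all libraries and were not tested.

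Genes that act on the sheddases rose in LPS against Con in 7 of 11 cases and fell in 2, against 40% and 43% of all genes, and the median log2 fold change was 0.63. With library totals alone 4 rose and 6 fell. Timp1, an inhibitor of metalloproteases, rose by 3.82 ± 0.09 on the log2 scale, and Furin, the convertase that removes the inhibitory prodomain of ADAM10 and ADAM17, by 1.92 ± 0.11. Tspan14, a tetraspanin that escorts ADAM10, fell by 2.00 on the log2 scale (SE 0.09, edgeR adjusted p = 8.69e-15). Against LPS, 7 of 11 rose and 1 fell in UVABs, where 28.6% of all genes rose and 28.8% fell, and 5 rose and 1 fell in STSABs, where 28.4% rose and 29% fell. Furin rose again over LPS, to 1401 ± 200 CPM in UVABs and 1435 ± 108 CPM in STSABs, against 797 ± 53 CPM in LPS (SD, n = 5 each; log2 fold change 0.81 ± 0.09 and 0.85 ± 0.09). Timp3, the tissue inhibitor that acts on ADAM17, was the gene that fell, by 1.37 in UVABs (SE 0.15) and by 1.21 in STSABs (SE 0.15) on the log2 scale. Frmd8, which stabilises iRhom2 at the surface, averaged 125 ± 5.03 CPM in UVABs, against 110 ± 4.08 CPM in LPS (0.18 ± 0.04).

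Of 6 other proteolytic ADAMs tested, 2 rose and 3 fell in LPS against Con, against 40% and 43% of all genes, and 0 rose and 4 fell there with library totals alone. Against LPS, 3 rose and 1 fell in UVABs, and 2 rose and 1 fell in STSABs, where 3 rose with library totals or without the libraries numbered 2. Of all genes, 28.6% rose in UVABs and 28.4% in STSABs, and 28.8% and 29% fell. Adam9 rose over LPS by 0.46 ± 0.06 in UVABs and 0.44 ± 0.06 in STSABs, Adam15 by 0.28 ± 0.09 and 0.30 ± 0.09. Adam15 stayed below Con, with log2 fold changes of -0.79 in LPS, -0.51 in UVABs and -0.50 in STSABs. Adam19 rose by 0.72 ± 0.11 in LPS against Con (-0.0273 with library totals alone), and against LPS it fell by 0.34 in UVABs (SE 0.09) and by 0.44 in STSABs (SE 0.09) on the log2 scale, and the call in UVABs is lost with replicates 1 to 3 only.

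Of 20 other proteins that ADAM10 or ADAM17 cut, 15 genes rose and 4 fell in LPS against Con, where 40% and 43% of all genes did, with a median log2 fold change of 1.33. Tnf, the substrate for which ADAM17 was named, rose by 5.92 ± 0.16, Cx3cl1 (fractalkine) by 3.23 ± 0.07 and Tnfrsf1b, the second TNF receptor, by 2.74 ± 0.07. Against LPS, 4 rose and 11 fell in each apoptotic body group, against 28.6% and 28.8% of all genes in UVABs and 28.4% and 29% in STSABs. Cd44 fell by 0.67 in UVABs and by 0.68 in STSABs (SE 0.05 each), Vcam1 by 0.85 and by 0.82 (SE 0.10 each), and Notch2 by 0.59 and by 0.58 (SE 0.06 each). Lag3 rose by 1.40 ± 0.14 in UVABs and 1.42 ± 0.14 in STSABs.

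Among 17 adaptors and core genes of the Ras-ERK pathway downstream of EGFR, 10 rose and 3 fell in LPS against Con, where 40% of all genes rose and 43% fell, and with library totals alone 4 rose and 12 fell. Map2k1, the kinase MEK1, rose by 2.15 ± 0.05 on the log2 scale. In UVABs against LPS 5 rose and 5 fell, and in STSABs against LPS 5 rose and 3 fell, beside 28.6% and 28.8% of all genes in UVABs and 28.4% and 29% in STSABs. Mapk3, the kinase ERK1, rose by 0.85 ± 0.07 in UVABs and 0.82 ± 0.07 in STSABs, and Gab1, an adaptor of EGFR, by 1.05 ± 0.09 and 0.96 ± 0.09. Against Con, the log2 fold change of Mapk3 was -0.63 in LPS, 0.22 in UVABs and 0.19 in STSABs. The latter were -0.48 in UVABs and -0.50 in STSABs with library totals alone.

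Of 18 inhibitors of ErbB and ERK signalling tested, 8 rose and 7 fell in LPS against Con (4 and 10 with library totals alone), 6 rose and 6 fell in UVABs against LPS, and 7 rose and 6 fell in STSABs against LPS. Of all genes, 40% rose and 43% fell in LPS against Con, 28.6% and 28.8% in UVABs against LPS, and 28.4% and 29% in STSABs against LPS. Dusp5, a phosphatase of ERK, rose by 2.40 ± 0.10 in LPS against Con, and Dusp6, another, fell by 1.91 on the log2 scale (SE 0.11). Over LPS, Spred3, which restrains Ras signalling, rose by 1.52 ± 0.11 in UVABs and 1.49 ± 0.11 in STSABs, and Errfi1, an inhibitor of EGFR that its signalling induces, by 0.51 ± 0.08 and 0.57 ± 0.08. Spred3 had fallen in LPS, with a log2 fold change of -0.94 against Con.

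Of 18 genes induced early by growth factors, 11 rose and 3 fell in UVABs against LPS, and 10 rose and 3 fell in STSABs, where 28.6% and 28.4% of all genes rose and 28.8% and 29% fell. The medians were 0.38 and 0.35, against 0.00 and -0.01 over all genes. Lif, a cytokine of the interleukin 6 family, was at 63.1 ± 12.6 CPM in UVABs and 61.5 ± 14.0 CPM in STSABs, against 16.9 ± 2.20 CPM in LPS (SD, n = 5 each), a rise of 1.90 ± 0.14 and 1.86 ± 0.14 on the log2 scale (1.77 and 1.72 without the libraries numbered 2). Egr1 rose by 1.07 ± 0.14 and 1.02 ± 0.15 from a low level in LPS. Its log2 fold change against Con was -3.46 in LPS, -2.39 in UVABs and -2.44 in STSABs. In LPS against Con 10 rose and 8 fell, against 40% and 43% of all genes, among them Atf3 at 2.75 ± 0.08 and Egr2 at -2.67 ± 0.08. These genes also answer to other stimuli.

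For scale, the 5 inflammation genes Il6, Il1b, Nos2, Ccl2 and Cxcl10 all rose in LPS against Con. In each apoptotic body group 4 of them were called lower than in LPS, as were 28.8% of all genes in UVABs and 29% in STSABs. The call of Il1b in UVABs (-0.19, edgeR adjusted p = 0.030) was lost with library totals alone, which leaves 3, and without replicate 1, 3 or 5 of UVABs or replicate 1, 2, 3 or 4 of LPS. With replicates 1 to 3 only it was lost in both groups. Ccl2, a chemokine for monocytes, fell by 1.37 in UVABs (SE 0.10) and by 1.46 in STSABs (SE 0.10) on the log2 scale. The log2 differences of Il6 from LPS were -0.56 ± 0.05 and -0.63 ± 0.05, smaller in size than the -2.67 and -2.92 of Ereg and close to those of Adam17. Ereg was named for its drop, so this comparison of sizes is a description.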

How the data were processed

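The deposited table holds estimated counts per gene symbol that the authors did not normalize. HISAT2 and mm39 were used per the submitters' processing notes, while the counter, its use of strand, the annotation and all versions were not given in the sources used here. Of the values 6.35% were not whole, none of them in the 7 genes, and these were rounded. Totals were 17851500 to 18312800 in UVABs, 17588400 to 18675300 in STSABs, 18089100 to 18582800 in LPS and 18252500 to 18346800 in Con, which sets the precision of low genes. filterByExpr kept 12465 genes and 99.97% of the counts. TMM-scaled counts were tested with edgeR 4.0.16 (R 4.3.3), quasi-likelihood F-test, in a fit of all 18 libraries with group means, and Benjamini-Hochberg adjustment over all genes, threshold 0.05. The code was checked on simulated data. Principal components and correlations used log2 CPM with a prior count of 1.

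The 7 genes, the gene lists and the rules were chosen with earlier results of these data known. Named are the 7 genes, up to 4 genes per list and comparison (those of lowest adjusted p), short lists in full, and the 5 genes most like each ligand gene. A gene that the rule names is not reported here. Libraries of a group were not duplicates. Deviations from the group mean of same-numbered UVABs and STSABs libraries correlated at 0.110, 0.493, 0.111, 0.250 and 0.121. The highest value, 0.493, was that of the libraries that stood apart from their groups. For same-numbered libraries of the other pairs of groups the values were -0.0845 to 0.0915. Libraries of different numbers were not compared, so whether the numbers pair UVABs with STSABs was not tested. The p-values and intervals given for UVABs against STSABs come from the fit with group means, which uses no pairing. Other settings tried were scaling by DESeq2 size factors, by upper quartiles and by library totals, testing by DESeq2 1.42.0 or limma-voom (limma 3.58.1), a looser and a stricter filter on low counts, fitting the compared groups alone, using replicates 1 to 3, a covariate for replicates 4 and 5, the replicate block, and leaving libraries out. The block fit of the apoptotic body groups alone, and list counts under each alternative, were added after seeing the data.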

Additional observations from a re-analysis of the deposited data

Results flagged for a closer look

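A library far from the others of its group was looked for in 153 groups of values with Dixon's test, which flags about 1 group in 20 by chance, or 5%. It marked 21, or 13.7%, and 16 of them were libraries numbered 2 of the apoptotic body groups.

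Of the 7 genes, 3 were marked. Areg had 3.83 CPM in STSABs replicate 2, the highest of that group. Adam17 had 144 CPM in the same library, the lowest of its group. Tgfa had 0.737 CPM in LPS replicate 5, on 12 counts.

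Among genes of the pathway, UVABs replicate 2 was the farthest library for Nrg1 (65.1 CPM), Cxcl10 (4258 CPM), Furin (1052 CPM), Adam12 (0.719 CPM), Adam15 (113 CPM), Tnf (277 CPM), Cd44 (363 CPM), Mapk3 (251 CPM) and Rasa1 (22.3 CPM). STSABs replicate 2 was it for Nrg1 (56.8 CPM), Tnf (292 CPM), Tnfrsf1b (1362 CPM), Dusp5 (268 CPM) and Lif (85.6 CPM). The remaining marks were Dusp1 in STSABs replicate 1 (224 CPM), Nras in LPS replicate 1 (165 CPM), Nrg2 in LPS replicate 2 (0.424 CPM) and Il1b in LPS replicate 5 (4083 CPM).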

How the results depend on the processing

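The number of genes called stayed within 1.5 times of the reported one under all alternatives run: 8832 to 11167 for LPS against Con, 5965 to 7458 for UVABs against LPS, 5982 to 7431 for STSABs against LPS, and 0 for UVABs against STSABs, where the replicate block also gave 0 calls, in all groups and in the apoptotic body groups alone. Pairing by the replicate block changed no call of the 7 genes in the comparisons with Con or between the apoptotic body groups, and gave Nrg1 a call in UVABs against LPS (0.28). Ereg, Hbegf, Rhbdf2 and Adam10 kept direction and call in every comparison with Con. With library totals alone, Adam17 against Con was 0.22 in each apoptotic body group (adjusted p 0.098 in UVABs, 0.093 in STSABs), and Tgfa in UVABs against Con was called, at -1.01; the cause was not tested.

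Of the genes outside the 7 that are described as higher in LPS than in Con, Nrg4 (-0.24) and Adam19 (-0.0273) changed sign with library totals alone. Among the 7 genes, values that changed sign were uncalled ones. In STSABs against Con, Tgfa was -0.20 with upper-quartile scaling, -0.63 with library totals, -0.20 with the replicate block and -0.21 with the covariate for replicates 4 and 5. In UVABs against STSABs, Adam17 was -0.0013 with DESeq2 size factors and with upper-quartile scaling, -0.00421 with library totals, -0.0012 in DESeq2, -0.00706 with replicates 1 to 3 and -0.0023 without the libraries numbered 2. There Areg was -0.0044 in limma-voom, and Rhbdf2 0.0026 without the libraries numbered 2. With single libraries left out, Tgfa ranged from -0.0793 to 0.0862 in LPS against Con, -0.0292 to 0.23 in STSABs against LPS and -0.0585 to 0.19 in STSABs against Con. In UVABs against STSABs, Adam10 ranged from -0.0593 to 0.0271, Adam17 from -0.10 to 0.10, Areg from -0.21 to 0.27 and Rhbdf2 from -0.0151 to 0.0163. Depth limits Tgfa (2 to 12 counts a library) and Ereg in Con (3 to 5).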
